A study of Mus musculus with 45 samples.

Results

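Ribosome biogenesis genes encode the proteins that transcribe, cut, modify and assemble ribosomal RNA (rRNA) in the nucleolus. The genes described here were a named list of 48 symbols, and all 48 were found among the 26214 genes of the deposited expression table. The list is one of gene names, with no threshold on a measured value, and was drawn up with earlier results of these data known. The RNA came from pooled fully grown oocytes (FGOs) of mice and from late two-cell embryos sequenced singly, from females with or without H3.3K36M, a histone H3.3 whose lysine 36 is replaced by methionine. The comparisons asked how the 48 transcripts differed between the oocyte and the embryo, and whether maternal H3.3K36M altered them.

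Control FGOs (n = 3 libraries) came from H3f3b K36M-flox/+ females and K36M FGOs (n = 3) from H3f3b K36M-flox/+; Gdf9-Cre females, all aged 3 to 4 weeks. Both genotypes therefore carried the floxed allele at the H3f3b locus. Cre was driven by the oocyte-specific Gdf9 promoter, and a wild-type H3f3b allele remained in the K36M females. Embryos were made by in vitro fertilization of oocytes from superovulated females and collected 31 to 32 h later, and each library was 1 embryo. The age of these superovulated females is not given in the sources used here. There were 8 control and 8 K36M oocyte-derived embryos. The labels give the strain of FGOs as hybrid C57BL/6 / 129 and that of embryos as hybrid C57BL/6 / 129 X JF-1. The labels do not give the genotype that each embryo itself inherited. Control two-cell replicate 4, which the study set aside for a technical problem, was left out, so that 21 libraries were compared.

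In the growing oocyte the nucleolus makes rRNA. In the fully grown oocyte it has become a compact body with little rRNA transcription, and after fertilization nucleoli are rebuilt as rRNA transcription resumes around the time the embryonic genome is activated. RNA polymerase I makes the precursor, small nucleolar ribonucleoproteins (snoRNPs) of the box C/D and box H/ACA kinds modify it, and the U3 snoRNP with the small-subunit (SSU) processome starts its cleavage. Separate sets of factors then complete the small and the large ribosomal subunit. The 48 genes are described below in that order of roles.

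Values are TPM, the share of the transcripts in a library corrected for gene length and scaled so that each library sums to 1000000. Therefore a higher TPM is a larger share. More copies of a transcript, fewer copies of the others and cells of another kind cannot be told apart. Rose and fell refer below to this share. TPM keeps no read depth, and the reads behind each value are unknown. The authors list total reads for each library, and every embryo library had fewer than every FGO library. Differences were tested on log2(TPM + 1) with limma, with Benjamini-Hochberg adjustment over all genes tested and a threshold of 0.05 for a call. Fold changes on this scale understate the change of low genes. FGOs were pools and embryos were single, and the groups also differed in strain and in superovulation. Embryo libraries were also given more amplification cycles. Stage cannot be told apart from these features or from total reads. Nothing in the labels says that libraries of a group came from separate females, and p-values measure the spread between these libraries.

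The stage markers went with the labels. The sum of 10 oocyte genes was 17610 to 20650 TPM in FGOs and 1277 to 4694 TPM in the embryos. The sum of 8 two-cell activation genes, which include Zscan4d, was 34.5 to 73.9 TPM in FGOs and 270.4 to 2440 TPM in the embryos. The sum of 12 granulosa and cumulus genes was 41.6 to 68.8 TPM in FGOs and 24.4 to 172.4 TPM in embryos. In control samples Cyp19a1, Inha, Hsd3b1, Fshr and Has2 had lower means in embryos than in FGOs, and the other genes had higher ones. Amhr2 had the highest mean of them in control embryos, 53.97 TPM against 1.17 TPM in control FGOs. The cumulus genes Ptx3 and Tnfaip6 stayed under 0.6 TPM in FGOs. They reached 9.9 and 28.1 TPM in single embryos, but control embryos averaged 1.48 and 5.51 TPM, and some embryos held 0. In the FGOs Cyp19a1 was the granulosa gene with the clearest level, at 18.5 to 31 TPM.

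The embryos held a larger share of ribosome biogenesis transcripts than the FGOs of their genotype. The 48 members together took 0.590% ± 0.021 of TPM in control FGOs (SD, n = 3) and 1.18% ± 0.31 in control embryos (SD, n = 7). In the K36M samples the share was 0.552% ± 0.019 in FGOs (SD, n = 3) and 1.47% ± 0.33 in embryos (SD, n = 8). Every embryo had a larger share than every FGO library, from 0.634% up to 1.88%. Without Ncl and Npm1, the most abundant members in FGOs, the shares were 0.446% in control FGOs and 1.02% in control embryos.

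**Figure D1:**
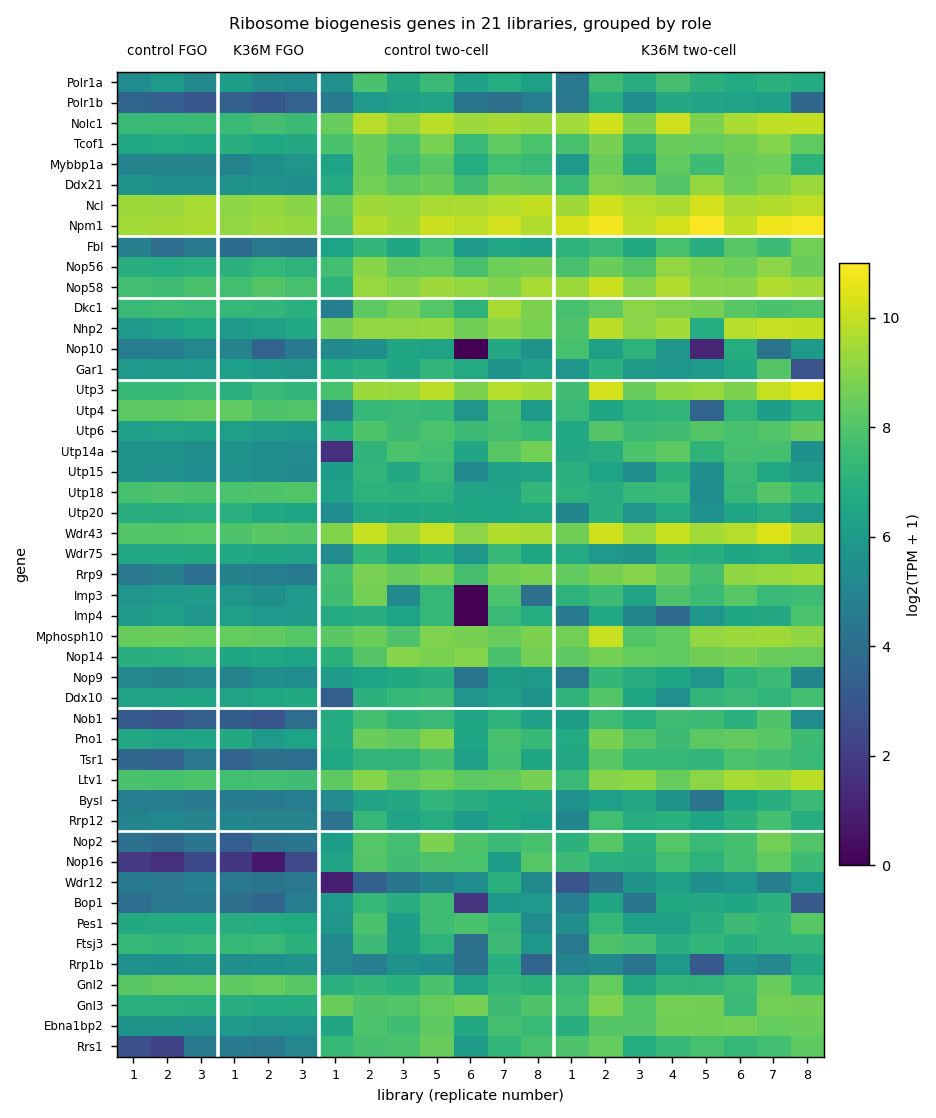
Level of each of the 48 genes (rows, grouped by role and separated by white lines) in each of the 21 libraries (columns, by replicate number), as log2(TPM + 1) on a colour scale from 0 to 11. FGO libraries resemble each other closely, whereas single embryos differ more, with Imp3, Imp4 and Nop10 at 0 in control two-cell replicate 6.

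Between control FGOs and control embryos 22 of the 48 members rose, 2 fell and 24 were not called (limma, Benjamini-Hochberg). Over all 17358 genes tested, 13.4% were called higher and 13.2% lower. No member was called lower without control FGO replicate 2 or control FGO replicate 3, where 7.55% and 7.4% of all genes were. The median log2 difference was 1.20 over the members and 0.00 over all genes. The libraries did not overlap, with every embryo above every FGO library, for 21 members, against 14.1% of all genes. Between K36M FGOs and K36M oocyte-derived embryos 27 members rose and none fell, against 10.8% of all genes called higher and 18.6% lower. At an unadjusted p under 0.05, 3 members were lower in K36M embryos, against 25.2% of all genes. The median difference there was 1.57 over the members and -0.18 over all genes. K36M embryos lay entirely above K36M FGOs for 26 members, against 9.04% of all genes. With a median-of-ratios scaling of the libraries, 20 members were called higher and 3 lower in the control comparison, against 11.2% and 17.9% of all genes. In the K36M comparison 26 were then higher and 3 lower, against 9.97% and 21.5% of all genes.

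All 22 members that rose in control samples also rose in K36M samples, where Ltv1, Ncl, Npm1, Pno1 and Rrp12 rose as well. The control and the K36M comparison share no library, but came from 1 fit with a shared spread. A call in only 1 of them does not show a difference, and the test of that difference is given further on.

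**Figure D2:**
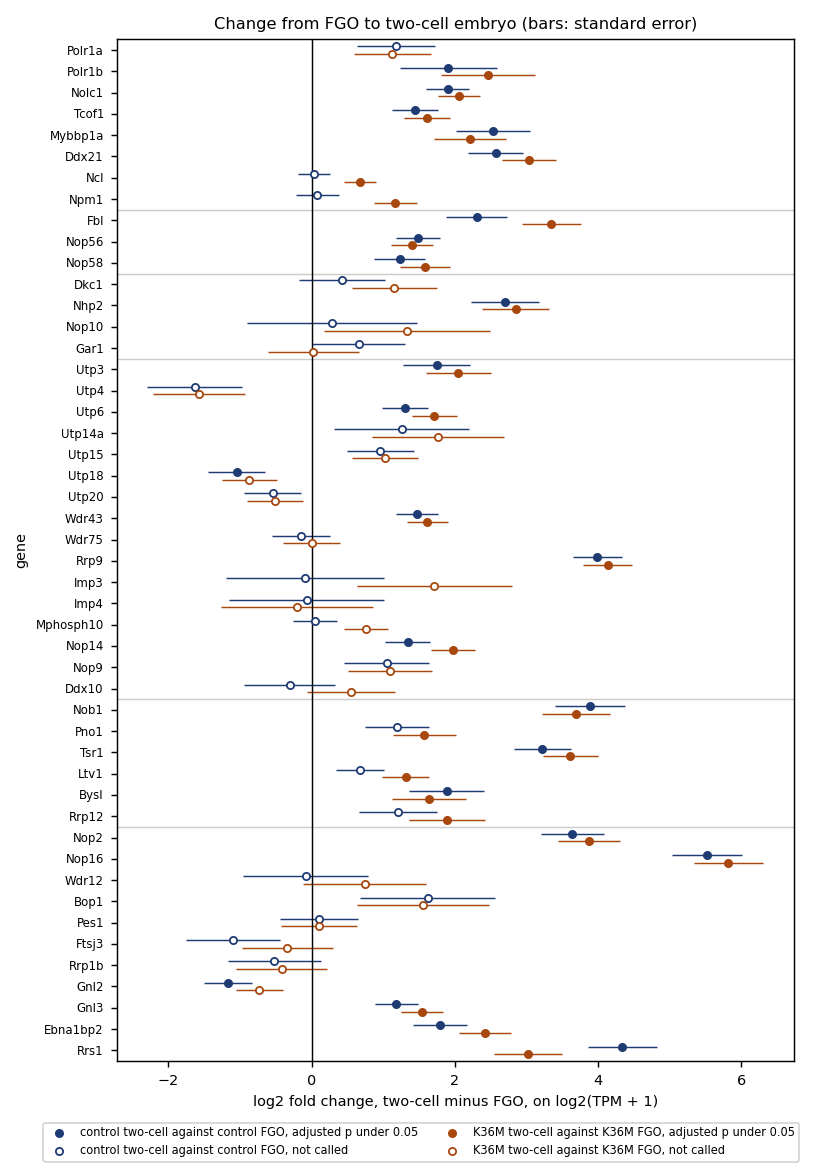
Log2 difference between two-cell embryos and FGOs on log2(TPM + 1) (x axis) for each gene (y axis, grouped by role), in control (blue) and K36M (orange) samples, with standard errors. Filled circles passed an adjusted p of 0.05. In control samples Nop16, Rrs1, Rrp9, Nob1, Nop2 and Tsr1 lie farthest to the right, and Utp4, Gnl2, Ftsj3 and Utp18 farthest to the left.

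The factors of rRNA transcription and nucleolar organization were higher in the embryo for 5 of 8 members in control and 7 of 8 in K36M samples. Over all genes, 13.4% were called higher and 13.2% lower in control and 10.8% and 18.6% in K36M samples. These shares stand beside every role count below. Polr1b, the second-largest subunit of RNA polymerase I, was at 10.6, 8.63 and 6.7 TPM in control FGOs and at 15.8 to 86 TPM in control embryos, with a median of 23.5 TPM. All embryos lay above all control FGOs (log2 difference 1.91 ± 0.67 SE, adjusted p = 0.0373, limma). Polr1a, the largest subunit, was not called in either genotype: control FGOs held 39.2, 63.3 and 37.2 TPM, control embryos 46 to 231.3 TPM with a median of 97.6 TPM, and the groups overlapped (log2 difference 1.17 ± 0.55 SE, adjusted p = 0.117, limma). Ddx21, a nucleolar RNA helicase, rose from 45.3 ± 4.21 to 294.7 ± 105 TPM in control samples (SD, n = 3 and 7). In K36M samples it went from 48.3 ± 3.47 to 431.8 ± 161.1 TPM (SD, n = 3 and 8). Mybbp1a, a nucleolar protein that binds RNA polymerase I, rose by 2.54 and 2.21 on the log2 scale in control and K36M samples. Nolc1, a chaperone of snoRNPs, rose by 1.90 and 2.06 and Tcof1, which links rRNA transcription to pre-rRNA modification, by 1.44 and 1.61.

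Ncl and Npm1, abundant nucleolar proteins that bind RNA and histones, stood apart in that FGOs already held them at high levels. Ncl was at 661.1, 641 and 759.5 TPM in control FGOs and at 362.4 to 1002.5 TPM in control embryos, with a median of 761.5 TPM. These ranges overlapped, and the log2 difference was 0.03 ± 0.23 SE (adjusted p = 0.945, limma). Npm1 was at 709.1, 726.8 and 794.7 TPM in control FGOs and at 296.4 to 1212.7 TPM in control embryos, median 856.7 TPM, with a log2 difference of 0.08 ± 0.30 SE. Both small differences were below 0 with the median-of-ratios scaling and with the replicate number as a block. In K36M samples Npm1 went from 601.7, 677.4 and 609.8 TPM to 971.1 to 1954.7 TPM, median 1466 TPM (log2 difference 1.17 ± 0.30 SE, adjusted p = 0.00414, limma), and Ncl rose by 0.67 ± 0.22 SE.

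The 3 members from the box C/D snoRNP, which guides 2'-O-methylation of rRNA, were higher in embryos of both genotypes. Fbl, the methyltransferase, was at 27, 14.1 and 20.6 TPM in control FGOs and at 65.4 to 203.3 TPM in control embryos, with a median of 91.1 TPM and no overlap (log2 difference 2.31 ± 0.43 SE, adjusted p = 0.000257, limma). In K36M samples it went from 13.7, 21 and 17.9 TPM to 102.4 to 407.1 TPM, median 183.4 TPM (log2 difference 3.35 ± 0.42 SE, adjusted p = 1.53e-06, limma). Nop56 was at 117, 110.2 and 124.8 TPM in control FGOs and at 202 to 533.7 TPM in control embryos, again without overlap. Nop58 rose by 1.23 in control and 1.58 in K36M samples on the log2 scale, although control two-cell replicate 1, at 140.1 TPM, lay below the control FGOs.

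The box H/ACA snoRNP, which guides pseudouridylation, had 1 called member of 4, Nhp2, in each genotype. Nhp2 rose from 78.5 ± 17.2 to 516 ± 96.7 TPM in control samples (SD, n = 3 and 7) and by 2.85 on the log2 scale in K36M samples. Dkc1, the pseudouridine synthase, was at 172, 189.4 and 175.4 TPM in control FGOs and at 26.2 to 746.7 TPM in control embryos, with a median of 299.5 TPM and a difference within the spread (adjusted p = 0.646, limma). Its K36M embryos, at 223.4 to 539.9 TPM, all lay above the K36M FGOs, at 125.4 to 157.6 TPM, but the difference was not called (adjusted p = 0.151, limma). Gar1 was at 59.2 to 63.3 TPM in control FGOs and at 51.4 to 156.6 TPM in control embryos. Nop10, the smallest of the 4 proteins, was at 24 to 34.2 TPM in control FGOs and at 0 to 97.7 TPM in control embryos, so that its difference of 0.29 had a standard error of 1.18, and it was 1.14 without control replicate 6 and 0.035 without control replicate 7.

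**Figure D3:**
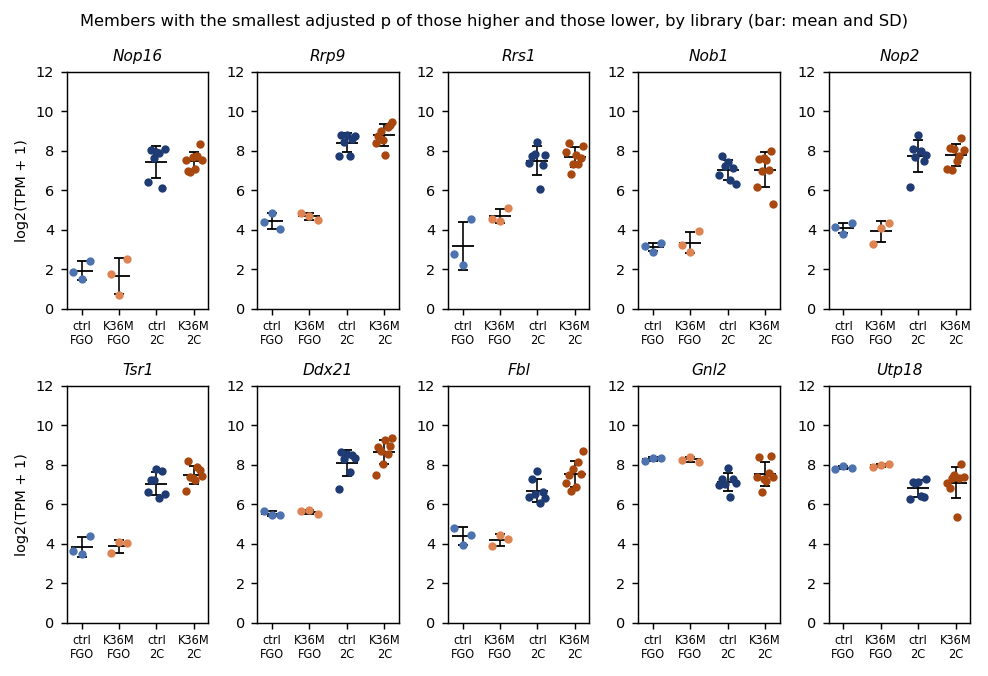
TPM of 8 members called higher in the embryo, those among the 6 smallest adjusted p of either genotype, and of the 2 called lower in control embryos, Gnl2 and Utp18, as log2(TPM + 1), for every library of the 4 groups (points), with the mean and SD (bars). In the 8 rising genes control embryos lie above the control FGOs without overlap, and in Gnl2 and Utp18 they lie below.

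The 16 members of the SSU processome were mixed, with 5 higher and 1 lower in control samples and 5 higher in K36M samples, and medians of 0.50 and 1.06 on the log2 scale. The control median lay in a gap between Mphosph10 (0.05) and Utp15 (0.96). It was larger without control two-cell replicate 6, in which Imp3 and Imp4 were at 0. Rrp9, a protein particular to the U3 snoRNP, had the smallest adjusted p of all members. It was at 20, 27.7 and 15.3 TPM in control FGOs and at 211.1 to 442.9 TPM in control embryos, with a median of 393.1 TPM. K36M FGOs held 27.3, 25.2 and 21.3 TPM and K36M embryos 217.4 to 715.9 TPM, median 469 TPM. Embryos lay above FGOs in both genotypes without overlap, at log2 differences of 3.99 ± 0.34 SE (adjusted p = 5.2e-09) and 4.13 ± 0.34 SE (adjusted p = 1.86e-09, limma). Utp3, Utp6, Wdr43 and Nop14, which are also processome components, rose in both genotypes, by 1.30 to 1.74 in control and 1.61 to 2.05 in K36M samples on the log2 scale.

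Other processome genes did not follow Rrp9. Utp18 was at 223, 242 and 228.2 TPM in control FGOs and at 76.6 to 156.6 TPM in control embryos, with a median of 133.1 TPM, so that every embryo was lower. The log2 difference was -1.05 ± 0.39 SE, just inside the threshold (adjusted p = 0.0497, limma), and Utp18 was called in 9 of 31 alternative analyses. Utp4 was lower in every control and every K36M embryo than in the FGOs of its genotype, at 25.2 to 231.2 TPM against 299.6 to 328.9 TPM in control samples, but was not called (log2 difference -1.64 ± 0.66 SE, adjusted p = 0.0689, limma). Every control embryo was also lower in Utp20, at 39.3 to 102.8 TPM against 115 to 126.6 TPM (adjusted p = 0.339, limma). Over all genes 18.2% had all control embryos below all control FGOs, and 17.2% had all K36M embryos below all K36M FGOs.

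None of the remaining processome members was called in either genotype. Mphosph10, which forms a complex with Imp3 and Imp4 on the U3 snoRNP, was already at 340.1 to 354.6 TPM in control FGOs and at 244.3 to 462.8 TPM in control embryos. Imp3 was at 54.2, 59.1 and 66.8 TPM in control FGOs, whereas control embryos ran from 0 to 419.7 TPM with a median of 157.8 TPM. Imp4 ran from 0 to 175.6 TPM in control embryos, median 112 TPM, against 53.7 to 74.4 TPM in FGOs. Both zeros were in control two-cell replicate 6, and without that embryo the log2 differences moved from -0.09 to 0.89 for Imp3 and from -0.07 to 0.92 for Imp4, still not called. In K36M samples every embryo lay above the FGOs in Imp3, at 85 to 280.1 TPM against 43.4 to 60.2 TPM, but the difference was not called (log2 difference 1.71 ± 1.08 SE, adjusted p = 0.256, limma). Wdr75 was at 93 to 102.8 TPM in control FGOs and 38.6 to 160.8 TPM in control embryos, Ddx10 at 83.7 to 87.8 and 8.92 to 178.9 TPM. Utp14a reached 405.9 TPM in control embryos, with a median of 211.9 TPM, against 42.2 to 48.2 TPM in FGOs, but replicate 1 held 1.85 TPM. Utp15 (37.3 to 174.9 TPM in control embryos against 39.9 to 49.4 TPM in control FGOs) and Nop9 (18.6 to 118.9 TPM against 29.2 to 33.2 TPM) had higher medians in embryos and ranges that overlapped.

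The late factors of the small subunit were higher in the embryo for 3 of 6 members in control and 6 of 6 in K36M samples, and no member fell. Nob1, the endonuclease that cuts the 3' end of 18S rRNA, was at 7.98, 6.44 and 9.02 TPM in control FGOs and at 78.5 to 213.2 TPM in control embryos, with a median of 138.5 TPM (log2 difference 3.89 ± 0.49 SE, adjusted p = 1.79e-06, limma). Its binding partner Pno1 was at 84.5 to 98.9 TPM in control FGOs and at 86.5 to 481.1 TPM in control embryos, and narrowly missed the threshold (log2 difference 1.20 ± 0.45 SE, adjusted p = 0.0501, limma). In K36M samples Pno1 was called (log2 difference 1.57 ± 0.44 SE, adjusted p = 0.00835, limma). Tsr1 was at 11.4, 10 and 20 TPM in control FGOs and at 77.7 to 218.2 TPM in control embryos, median 149.2 TPM. Tsr1 in K36M samples went from 10.3, 15.8 and 15.2 TPM to 99.4 to 289.8 TPM, with no overlap in either genotype (log2 differences 3.22 ± 0.39 SE and 3.61 ± 0.39 SE). The exons of Tsr1 share 1566 of their 3385 bases with Srr on the opposite strand, and Srr itself averaged 4.94 TPM in control FGOs and 26.2 TPM in control embryos. Bysl rose in both genotypes, from 23.9 ± 1.93 to 97 ± 33.5 TPM in control samples (SD, n = 3 and 7). Ltv1 and Rrp12 rose by 1.31 and 1.89 in K36M samples and showed differences of 0.68 and 1.21, not called, in control samples.

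The large-subunit factors, of which 5 of 11 rose in each genotype, included the largest log2 difference of the 48 members. Nop16, a pre-60S assembly factor, was at 2.61, 1.79 and 4.4 TPM in control FGOs and at 68.9 to 269.3 TPM in control embryos, with a median of 236.6 TPM. K36M FGOs held 2.42, 0.619 and 4.7 TPM and K36M embryos 121.9 to 321.6 TPM, median 183.5 TPM. The log2 differences were 5.52 ± 0.49 SE (adjusted p = 8.25e-09) and 5.82 ± 0.48 SE (adjusted p = 2.16e-09, limma). Nop2, which methylates a cytosine of 28S rRNA, went from 16.3, 13 and 19 TPM to 69.9 to 449.8 TPM, median 221.5 TPM, in control samples (log2 difference 3.64 ± 0.44 SE, adjusted p = 1.1e-06, limma). Nop2 in K36M samples went from 8.83, 16.2 and 19.1 TPM to 131.5 to 399.3 TPM. Rrs1, needed to bring the 5S ribonucleoprotein into the large subunit, was at 5.7, 3.66 and 22.2 TPM in control FGOs and at 65.7 to 342.4 TPM in control embryos, median 215.7 TPM (log2 difference 4.34 ± 0.48 SE, adjusted p = 2.75e-07, limma). Gnl3, a nucleolar GTPase also called nucleostemin, and Ebna1bp2 rose in both genotypes, by 1.18 and 1.79 in control samples.

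Gnl2, a nucleolar GTPase related to Gnl3, went the other way. It was at 290, 323.8 and 320.4 TPM in control FGOs and at 81 to 231.5 TPM in control embryos, with a median of 132.8 TPM and every embryo below every FGO library (log2 difference -1.17 ± 0.34 SE, adjusted p = 0.0119, limma). In K36M samples the difference was -0.73 ± 0.33 SE and was not called. Pes1, Bop1 and Wdr12 together form a complex needed for the large subunit, and none of them was called in either genotype. Pes1 was at 100.5 to 109.4 TPM in control FGOs and at 38.2 to 231.3 TPM in control embryos. Bop1 was at 14.7 to 20.6 TPM in control FGOs, and 6 of 7 control embryos held 57.4 to 190.6 TPM, but replicate 6 held 2.24 TPM. Wdr12 was at 19.4 to 25.4 TPM in control FGOs and at 0.89 to 129.2 TPM in control embryos. Ftsj3, an rRNA methyltransferase (15.7 to 188 TPM in control embryos against 151.7 to 159.3 TPM in control FGOs), and Rrp1b (10.7 to 119 TPM against 45.6 to 50.5 TPM) had lower means in the embryos and were not called.

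The levels of the members spanned a narrower range in the embryos. In control FGOs their mean TPM ran from 2.93 for Nop16 to 743.5 for Npm1, a ratio of 253.5, and 12 members lay under 30 TPM. In control embryos the means ran from 37.7 for Wdr12 to 848 for Npm1, a ratio of 22.5, and no member lay under 30 TPM. Of the 12 members with the lowest control FGO levels 9 rose, with a median log2 difference of 2.76. Of the 12 with the highest levels 4 rose and 2 fell, with a median of 0.25. That median lay between Npm1 (0.08) and Dkc1 (0.42). With an embryo left out, Npm1 ran from -0.024 to 0.31 and Dkc1 from 0.15 to 0.95. The FGO level enters both the ranking and the difference, and this order is a description only.

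The sequence just before the start site is shown for 5 members with large rises and for Utp18, which fell. Each line gives the 100 bases before the start of transcription listed for the gene in RefSeq, 5′ to 3′ on the strand of the gene (GRCm38.p6), and capitals mark the E-box CACGTG, the binding motif of MYC and related factors, which reads the same on both strands. In Nop16 the annotated gene begins further upstream than that start and takes in the last 23 bases of the line.
Nop16 (chr13:54590075-54590174, minus strand): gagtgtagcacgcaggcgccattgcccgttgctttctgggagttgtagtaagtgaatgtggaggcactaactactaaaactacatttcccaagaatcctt
Rrp9 (chr9:106477209-106477308, plus strand): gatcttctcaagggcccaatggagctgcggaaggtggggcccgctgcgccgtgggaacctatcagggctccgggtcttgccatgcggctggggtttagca
Nob1 (chr8:107425039-107425138, minus strand): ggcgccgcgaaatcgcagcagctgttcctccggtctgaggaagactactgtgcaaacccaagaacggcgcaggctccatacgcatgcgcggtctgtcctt
Nop2 (chr6:125131783-125131882, plus strand): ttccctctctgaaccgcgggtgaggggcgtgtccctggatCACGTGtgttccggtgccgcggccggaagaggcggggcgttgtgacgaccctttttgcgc
Tsr1 (chr11:74897980-74898079, plus strand): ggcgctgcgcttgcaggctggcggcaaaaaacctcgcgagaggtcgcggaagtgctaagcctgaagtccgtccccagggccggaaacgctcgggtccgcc
Utp18 (chr11:93885767-93885866, minus strand): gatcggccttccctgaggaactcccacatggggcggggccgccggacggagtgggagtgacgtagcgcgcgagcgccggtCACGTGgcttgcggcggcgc
Nop2 and Utp18, a gene that rose and one that fell, both hold CACGTG in these windows. Among the 40 members with a RefSeq promoter entry, 3 had it within 250 bases upstream (7.5%, Imp4 being the third), compared with 9.03% of the genes tested between stages that had an entry and 6.86% of all genes with one. No match says only that these letters are not in the window. Member promoters held a median of 15.5 CG dinucleotides in that window, against 14 for the genes tested.

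By the RefSeq annotation the 48 genes lie on 18 chromosomes, with 9 on chromosome 11 and Dkc1 and Utp14a on the X chromosome. Utp3, Imp3 and Rrs1 have a single exon. There are 7 members that carry snoRNA genes inside them, 19 in all: Nop56 has 5, Nop58 has 4, Gnl3 and Wdr43 have 3 each, Ncl has 2, and Dkc1 and Tsr1 have 1 each. Of these 7 hosts 5 rose in control and 6 in K36M samples, against 13.4% and 10.8% of all genes. Among all 48 members 22 and 27 rose. Exons of 16 members share bases with a gene on the other strand. The strand setting of the counting is not given in the sources used here, and reads from such partners could not be told apart. The longest overlaps after Tsr1 were those of Nop9 with Cideb, 858 bases, and Utp14a with a non-coding gene, 473 bases. On the same strand Ebna1bp2 shares 603 bases with D4Ertd617e, which averaged under 4 TPM in every group.

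A wider list of the pathway held 119 further genes, of which 116 were in the table and were tested. In control samples 33 were higher and 8 lower in the embryo, against 13.4% and 13.2% of all genes tested. In K36M samples 39 were higher and 10 lower, against 10.8% and 18.6%. The medians were 0.60 and 0.64 on the log2 scale. Taf1d, a subunit of the factor that brings RNA polymerase I to its promoter, went from 83.5 ± 3.13 TPM in control FGOs to 1187 ± 493.6 TPM in control embryos (SD, n = 3 and 7). Nol11 of the SSU processome went from 6.87 ± 1.82 to 251.6 ± 81.7 TPM and the helicase gene Ddx54 from 7.1 ± 2.17 to 259.1 ± 95.8 TPM. Bms1, a GTPase of the processome, fell from 1059 ± 23.9 to 143 ± 24.5 TPM. Riok1, a kinase of late small-subunit maturation, fell from 703 ± 54.9 to 170.8 ± 63.9 TPM, and Mphosph6, an exosome cofactor, from 2377 ± 63.3 to 876.4 ± 408.2 TPM. Within the wider pathway, too, some genes rose and others fell.

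Single embryos of a group differed more than FGO pools. The SD of log2(TPM + 1) had a median over the members of 0.73 in control and 0.67 in K36M embryos, against 0.10 and 0.17 in control and K36M FGOs. Control two-cell replicate 1 held the smallest share of member transcripts of the embryos compared (0.634% of TPM), followed by K36M two-cell replicate 1 (0.933%) and control two-cell replicate 6 (0.949%). These 3 embryos also had the highest sums of oocyte genes, at 4031, 4694 and 4262 TPM, whereas the others ran from 1277 to 3367 TPM. The part of these oocyte transcripts in the differences between embryos was not tested. Without control replicate 1, 25 members were called higher and 1 lower between control FGOs and embryos, against 13.2% and 14.1% of all genes. Without control replicate 6 there were 24 higher and 1 lower, against 14.7% and 13.6%. Without K36M replicate 1, 28 rose between K36M FGOs and embryos, against 11.1% of all genes. Control two-cell replicate 4 held 0.561% and 7234 TPM of oocyte genes. It lay below the other 7 control embryos for 23 members, inside their range for 24 and above it for 1, and with it included 17 members were called higher and 1 lower, against 11.2% and 11.9% of all genes.

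**Figure D4:**
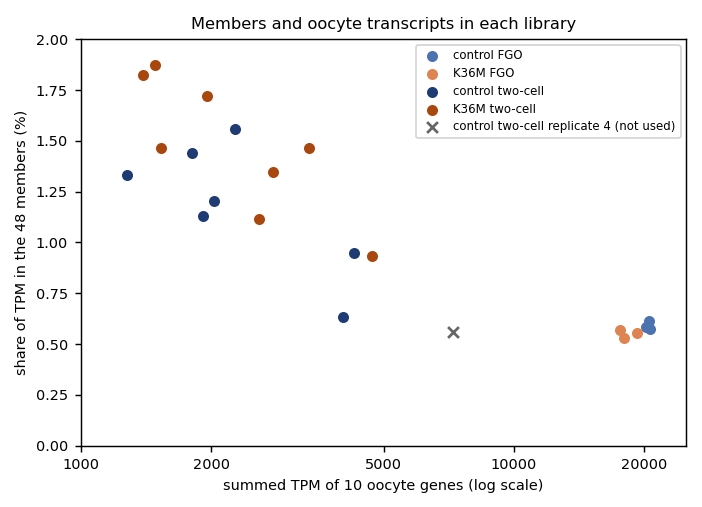
Share of TPM taken by the 48 members (y axis, %) against the summed TPM of 10 oocyte genes (x axis, log scale) in each library (points). FGOs lie near 0.6% at the right, and the embryos with the most oocyte transcripts, at 4031 to 4694 TPM, have shares of 0.634% to 0.949%.

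In FGOs, H3.3K36M was accompanied by no called change in any member (limma, Benjamini-Hochberg), against 0.00726% of 13775 genes called lower and 0.0% called higher. At an unadjusted p under 0.05 there were 6 members, 2 higher and 4 lower, against 5.15% and 5.34% of all genes. Leaving out K36M FGO replicate 1 raised that count to 15 members, and the share of all genes from 10.5% to 20.3%. Without that library 1.38% of all genes were called higher and 0.79% lower, and still no member. Leaving out control replicate 2 lowered the count to 3 members and the share to 8.22%. The median difference of the members was -0.08. With 3 libraries against 3 the exact permutation test cannot give a p below 0.1.

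Nop14 had the smallest unadjusted p in FGOs. It was at 118.9, 126 and 137.2 TPM in control and at 91.2, 97.1 and 81.9 TPM in K36M FGOs, without overlap (log2 difference -0.50 ± 0.10 SE, adjusted p = 0.306, limma). Ncl was at 555, 617.8 and 526.6 TPM in K36M FGOs, below all control FGOs (log2 difference -0.28 ± 0.09 SE). Npm1, at -0.24 ± 0.08 SE, and Dkc1, at -0.30 ± 0.11 SE, were likewise lower in every K36M library, with Dkc1 at -0.19 without K36M FGO replicate 3. Rrs1 was at 21.9, 20.4 and 32.8 TPM in K36M FGOs against 5.7, 3.66 and 22.2 TPM in control FGOs, so that the groups overlapped (log2 difference 1.51 ± 0.52 SE, adjusted p = 0.413, limma). Nop56, at 132, 161.1 and 137.5 TPM, lay above all control FGOs (0.28 ± 0.11 SE). Ebna1bp2 did so too (0.16 ± 0.11 SE), while Mybbp1a, at 30, 44.2 and 55 TPM, overlapped the control FGOs. In all, 8 members were lower and 2 higher in K36M FGOs without overlap, whereas 8.17% of all genes tested were lower and 7.46% higher in that way.

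In two-cell embryos no member was called between genotypes either (limma, Benjamini-Hochberg), nor was any of the 17362 genes tested, 0.0% in each direction. The authors' test on read counts called more genes between genotypes than limma did, in FGOs and in two-cell embryos, at the same threshold. At an unadjusted p under 0.05 there were 3 members, all higher in K36M oocyte-derived embryos, against 1.2% of all genes higher and 6.5% lower. The count was 9 without K36M two-cell replicate 1 (8.49% of all genes in either direction), 6 without control replicate 5 (7.36%) and 5 without control replicate 2, control replicate 8 or K36M replicate 4 (6.91%, 7.17% and 7.59%). The difference was above 0 for 41 of the 48 members, compared with 36.2% of all genes, but 21 of the 48 changed sign in at least 1 of 24 alternatives. Its median was 0.21 over members and -0.26 over all genes, and with quantile normalization 0.16 and -0.01. The median of the members was 0.087 without control replicate 1, 0.33 without K36M replicate 1, 0.34 without control replicate 5, 0.14 with array weights and 0.44 with control replicate 4 added. The members share libraries, and these counts carry no test. Genes above 0 TPM numbered 14690 ± 1821 in control and 13070 ± 1531 in K36M embryos, and the granulosa and cumulus genes summed to 110.4 ± 36.7 and 65.7 ± 40.4 TPM (SD, n = 7 and 8). The part of these library differences in the values of the members was not tested.

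Npm1 had the smallest p between two-cell genotypes. Control embryos held 296.4 to 1212.7 TPM with a median of 856.7 TPM and K36M embryos 971.1 to 1954.7 TPM with a median of 1466 TPM. The ranges overlapped, and 8 of 8 K36M embryos lay above the control median (log2 difference 0.85 ± 0.25 SE, adjusted p = 0.444, limma). Its two-sided exact permutation p was 0.00622. Fbl was higher by 0.85 ± 0.34 SE, with 8 of 8 K36M embryos above the control median and an exact permutation p of 0.0214. Ebna1bp2 was at 86.6 to 305.2 TPM in control and 122.1 to 412.1 TPM in K36M embryos, higher by 0.79 ± 0.31 SE, with an exact permutation p of 0.0311. These were 3 of 8 members tested in this way, each chosen by its p in the same fit, and none passed the adjustment over all genes. Mphosph10 (0.53), Gar1 (-0.60), Bysl (-0.36), Utp20 (-0.21) and Bop1 (-0.20) had exact permutation p from 0.0758 to 0.83. The last 4 differences moved with single embryos, and were -0.14 for Gar1 without K36M replicate 8, -0.079 for Bysl without K36M replicate 5, -0.049 for Utp20 without K36M replicate 1 and 0.17 for Bop1 without K36M replicate 8.

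**Figure D5:**
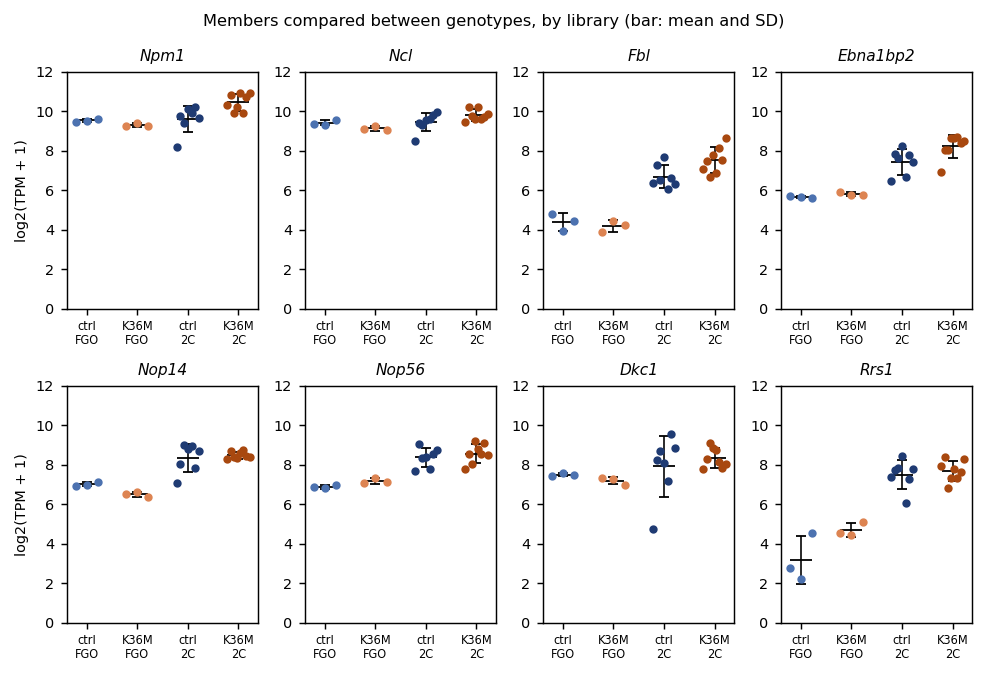
TPM of 8 members compared between genotypes, as log2(TPM + 1), for every library of the 4 groups (points), with the mean and SD (bars). K36M embryos lie above the control median for Npm1 in 8 of 8 cases, K36M FGOs lie below all control FGOs for Npm1, Ncl, Nop14 and Dkc1, and none of these differences passed the adjusted threshold.

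The stage difference itself was compared between genotypes by the interaction term of the fit over 21 libraries. It was called for no member and for 0.0% of all 17358 genes in each direction. At an unadjusted p under 0.05 there was 1 member, Npm1, against 1.15% of all genes in either direction. Its difference between embryo and FGO was larger by 1.09 ± 0.42 SE in K36M samples (adjusted p = 1, limma). The 4 other members called in K36M samples alone had interaction terms of 0.64 (Ncl), 0.63 (Ltv1), 0.38 (Pno1) and 0.68 (Rrp12), each with a standard error of at least 0.32. Rrs1, at -1.32 ± 0.67 SE, was the member with the most negative term, at -0.84 without control FGO replicate 2 and -2.005 without control FGO replicate 3. Without control two-cell replicate 1 the terms of Rrp12 and Pno1 were 0.34 and 0.22, and that of Pno1 ran from 0.17 to 0.58 over the libraries left out. The median term was 0.30 over the members and -0.27 over all genes. Over the members it was 0.10 without control two-cell replicate 1, 0.18 without K36M two-cell replicate 7, 0.15 with array weights and 0.53 with control replicate 4 added.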

How the data were processed

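The deposited table held TPM values for 22 libraries, which the authors made by trimming reads with Trim Galore!, mapping with Hisat2, removing rRNA reads with BEDTools and counting with featureCounts on mm10. The gene annotation, gene lengths and strand setting behind the TPM are not given in the sources used here. Read counts were not analysed here, and limma took the place of the edgeR count test that the authors used. Columns were mapped to samples by their labels. A per-gene linear model (limma 3.58.1, R 4.3.3, eBayes with a mean-variance trend) was fitted to log2(TPM + 1) for genes whose TPM averaged 1 or more in the fitted libraries: stage comparisons and their interaction in 1 fit of 21 libraries, genotypes within each stage. Benjamini-Hochberg adjustment covered all genes tested. The fitting code was first tested on simulated data in which 200 genes differed. Exact permutation tests were two-sided. The members and the gene lists were chosen with earlier results of these data known. Per-library values were given for the members with the smallest adjusted p of each stage comparison (6 in each direction), the 4 smallest unadjusted p in each direction of each genotype comparison, 10 lead genes fixed by role, and members called in neither stage comparison. Wider-pathway genes were named by the smallest adjusted p (3 in each direction). Chromosomes, exons and promoters came from RefSeq (GRCm38.p6). Python 3.11.15 was used. TPM keeps no depth, and the total reads that the authors list for each library were not used in the fits. Same-numbered libraries of the genotypes did not deviate together (r from -0.101 to 0.101), so the main fits have no replicate block.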

Additional observations from a re-analysis of the deposited data

Results flagged for a closer look

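In 14 of 78 sets of embryos, which comprised 37 named members, the share of TPM taken by all members and their median log2 level in each genotype, 1 embryo lay far from the others of its group, where chance alone gives about 1 in 20. All 14 were low values. In control two-cell replicate 6, Bop1 was at 2.24 TPM, Nop9 at 18.6 TPM, and Imp4 and Nop10 were listed at 0. In control two-cell replicate 1, Bysl was at 38.1 TPM, Npm1 at 296.4 TPM, Utp14a at 1.85 TPM and Utp20 at 39.3 TPM. In K36M two-cell replicate 1, Ebna1bp2 was at 122.1 TPM, Ftsj3 at 20.9 TPM and Polr1a at 21 TPM. In K36M two-cell replicate 5, Utp18 was at 39.6 TPM and Utp4 at 10.6 TPM, and in K36M two-cell replicate 8 Gar1 was at 6.12 TPM. In control two-cell replicate 4, which the comparisons do not use, Utp18 was at 188.7 TPM and so above the other 7 control embryos.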

How the results depend on the processing

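The count of members called stayed within 1.5 times its value under every alternative run: 18 to 35 around 24 in the control stage comparison and 24 to 38 around 27 in the K36M one. The members called lower among them ran from 0 to 4 in control, around 2, and from 0 to 3 in K36M samples, around 0. It was highest with array weights (31 higher and 4 lower, and 35 higher and 3 lower), where 28.1% of all genes were called higher and 27.9% lower in control and 19.3% higher and 29.8% lower in K36M samples. Of the called members, 15 of 24 and 24 of 27 were called in all 31 alternatives. The exceptions were Nop58, Polr1b, Gnl2, Utp3, Nhp2, Utp18, Gnl3, Bysl and Tcof1 in control and Ncl, Pno1 and Bysl in K36M samples. A pseudocount of 0.1 and the median-of-ratios scaling moved the median of all genes in the control stage comparison to -0.16 and -0.17. Leaving out each embryo was chosen after seeing the data. The replicate block, in which the numbers only name libraries, gave 21 higher and 1 lower in control samples (12.4% and 9.97% of all genes) and 25 higher in K36M samples (10.1%).

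Directions changed only for members without a call, and the cause was not tested. In at least 1 alternative this was so for 10 of 48 members in the control and 6 in the K36M stage comparison, 17 between FGO genotypes, 21 between two-cell genotypes and 19 in the interaction. Their log2 differences in the control stage comparison were as follows. With array weights they were 0.083 for Ddx10, 0.55 for Imp3 and 0.46 for Imp4. With the block they were 0.41 for Imp3, -0.20 for Mphosph10, -0.17 for Ncl, -0.24 for Npm1 and -0.33 for Pes1. With median-of-ratios scaling they were -0.27 for Mphosph10, -0.29 for Ncl, -0.0034 for Nop10, -0.24 for Npm1 and -0.21 for Pes1. With quantile normalization they were -0.041 for Mphosph10 and -0.039 for Pes1, with the pseudocount of 0.1 -0.16 for Nop10, and with control replicate 4 added -0.075 for Ncl, -0.40 for Pes1 and 0.043 for Wdr12. Leaving out 1 library at a time gave ranges of -0.54 to 0.16 for Ddx10, -0.57 to 0.89 for Imp3, -0.32 to 0.92 for Imp4, -0.012 to 0.14 for Mphosph10, -0.054 to 0.19 for Ncl, -0.024 to 0.31 for Npm1, -0.066 to 0.36 for Pes1, -0.51 to 0.51 for Wdr12 and -0.30 to 0.044 for Wdr75. For Bop1 between two-cell genotypes the range was -0.90 to 0.17.

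The reads behind each TPM value are unknown. Precision is limited by 3 FGO libraries a group and by single embryos. Members within the spread of the embryos are not shown to be unchanged. Stage, pooling, strain, superovulation, amplification cycles and total reads cannot be told apart.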
